A study of Mus musculus with 11 samples.

Results

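Osx+ cells, which the sample titles call osteolineage precursor cells, and CD45+ marrow cells were set against each other on Affymetrix mouse expression arrays. The members were the 2 arrays titled Osx+ cells and the 2 arrays titled CD45+ cells, 4 of the 11 arrays in the series. The remaining 7 arrays held 4 sorted stromal populations and were used only in a check of the spread.

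The Osx+ cells were sorted as CD45-, CD31-, Ter119- and Osx+, which the methods describe as GFP reporting Osterix, the transcription factor encoded by Sp7. A reporter marks cells in which the Sp7 promoter is or recently was active and does not separate osteoblast from cartilage stages. Their source is given as mouse periosteal tissue. The CD45+ cells were hematopoietic lineage cells sorted from mouse bone marrow, and the labels name no further marker for them. RNA was taken from the sorted cells without culture, and the methods describe sorts from a few male and female mice together. Strain, age and any treatment of these 2 populations were not given in the sources used here. The methods call the 2 samples of a population biological repeats without saying whether they came from different mice. Each p-value therefore measures only the spread between these samples, which may be technical. Eif2s3y and Xist differed between the 2 Osx+ arrays, as given in the last paragraph, and the source of that gap was not tested. The stated tissue of origin (periosteum against marrow) and lineage differ between the populations, and tissue digestion may differ. Signal of Y-linked genes and the gap between 3′ and 5′ control probe sets differed as well, with values given below. The parts of all these in any difference cannot be told apart.

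Osteolineage precursors make bone. Osterix acts downstream of the RUNX factors in preosteoblasts, and it is also active in hypertrophic chondrocytes, the cartilage cells that are replaced by bone. These cells secrete fibrillar collagen, cross-link it and mineralize it, and they answer to BMP, Wnt, Hedgehog and parathyroid hormone signals. CD45, encoded by Ptprc, is a receptor tyrosine phosphatase on all nucleated blood cells. A CD45+ sort from marrow therefore holds granulocytes and their precursors, monocytes, B and T cells, NK cells, basophils and eosinophils. Stromal cells of bone in turn supply blood cells with Cxcl12 and stem cell factor.

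Promoters of genes at both ends of the comparison are shown first, since RUNX factors serve both lineages and PU.1 (encoded by Spi1) serves blood. Each line gives the 170 bases before the RefSeq start site on the gene's own strand, 5′ to 3′, in build GRCm38.p6. Capitals mark the RUNX motif TGTGGTT or its other-strand form AACCACA in the first 4, and the PU.1 motif GAGGAAGT or its other-strand form ACTTCCTC in the last 2.
Mmp13 (collagenase 3, higher in Osx+, chr9:7272344-7272513, + strand): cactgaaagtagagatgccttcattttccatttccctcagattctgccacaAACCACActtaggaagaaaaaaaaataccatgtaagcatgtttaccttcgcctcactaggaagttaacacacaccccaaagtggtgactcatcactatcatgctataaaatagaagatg
Hapln1 (cartilage link protein, higher in Osx+, chr13:89540466-89540635, + strand): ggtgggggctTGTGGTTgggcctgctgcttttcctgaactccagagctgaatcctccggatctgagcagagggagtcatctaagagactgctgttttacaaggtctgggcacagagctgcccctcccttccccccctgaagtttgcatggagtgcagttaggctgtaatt
Lyz2 (lysozyme, lower in Osx+, chr10:117282273-117282442, - strand): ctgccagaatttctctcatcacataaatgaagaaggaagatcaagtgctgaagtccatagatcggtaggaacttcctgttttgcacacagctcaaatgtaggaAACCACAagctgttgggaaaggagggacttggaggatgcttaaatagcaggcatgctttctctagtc
Cybb (phagocyte oxidase subunit, lower in Osx+, chrX:9469325-9469494, - strand): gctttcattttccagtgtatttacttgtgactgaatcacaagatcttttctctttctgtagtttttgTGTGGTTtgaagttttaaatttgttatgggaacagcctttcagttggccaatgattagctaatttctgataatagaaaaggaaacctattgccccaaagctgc
Prtn3 (proteinase 3, lower in Osx+, chr10:79879497-79879666, + strand): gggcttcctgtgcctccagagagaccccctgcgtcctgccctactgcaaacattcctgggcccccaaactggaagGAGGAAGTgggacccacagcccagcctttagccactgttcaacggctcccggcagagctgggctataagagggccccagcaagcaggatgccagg
Olfm4 (olfactomedin 4, lower in Osx+, chr14:80000132-80000301, + strand): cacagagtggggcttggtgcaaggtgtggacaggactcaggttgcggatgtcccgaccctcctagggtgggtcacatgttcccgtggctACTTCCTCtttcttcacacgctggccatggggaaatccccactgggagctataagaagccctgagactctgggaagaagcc

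The RUNX letters began at position -119 before the start site in Mmp13, -160 in Hapln1, -67 in Lyz2 and -103 in Cybb. The promoters printed were picked because they hold the motif, so its presence on both sides is not a result. The PU.1 letters began at -95 in Prtn3 and -81 in Olfm4. A motif is a match of letters and not a shown site of binding. The calls of Lyz2, Cybb and Prtn3 were lost without either CD45+ array.

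Values are log2 of normalized probe set signals, and a difference is the Osx+ mean minus the CD45+ mean, so that 1 unit is a 2-fold difference. Errors are standard errors from limma (n = 2 arrays each), and a gene passed at an adjusted p under 0.05. Of 18193 genes, each taken from 1 probe set, 3605 (19.8%) were higher and 4627 (25.4%) were lower in Osx+ cells, 8232 (45.2%) in all. Both Osx+ arrays stood above both CD45+ arrays for 36.4% of genes and below both for 37.3%. The median difference of all genes was 0.02. On the 4 arrays the median of all probe sets lay between 4.43 and 4.49 and the first quartile between 3.12 and 3.25, so that values near or under these are dim signals. Where a population is dim, its value is largely background, and the exact size of a difference and its rank among other large ones are not read. Arrays are bulk samples, in which fewer cells of a type and less RNA per cell cannot be told apart.

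The sorting markers separated the arrays as labelled. Sp7 read 8.93 and 8.58 on the Osx+ arrays, against 4.30 and 4.05 on the CD45+ arrays. Ptprc read 2.42 and 5.07 on the Osx+ arrays, against 12.06 and 12.05 on the CD45+ arrays. Neither gene overlapped between populations, and Ptprc was the less even one, with Osx+ array 2 well above Osx+ array 1. The difference was 4.58 ± 0.18 for Sp7 (adjusted p = 4.06e-05) and -8.31 ± 0.82 for Ptprc (adjusted p = 0.000884). Of the other genes used to sort the series, Pdgfra (CD140a, 5.07), Itgav (CD51, 1.98) and Eng (CD105, 0.90) were higher and Pecam1 (CD31, -3.38) and the interferon-induced Mx1 (-3.35) were lower. Nes read 6.44 and 5.65 on the Osx+ arrays, against 5.26 and 5.34 on the CD45+ arrays, and did not pass. Col1a1, Ibsp and Alpl, markers of the osteoblast lineage, were higher by 8.48, 9.57 and 7.47, and Cd48, Cd53, Laptm5 and Vav1, markers of leukocytes, were lower by more than 4 units each. Ptprc and Laptm5 lost the call without either CD45+ array, Cd48 without CD45+ array 2, and Eng without any 1 of the 4 arrays. In a fit over all 11 arrays Pdgfra, Itgav and Eng lost the call, and Sp7 kept it. Each of these genes kept it in a fit over 9 arrays, which is described below.

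**Figure D1:**
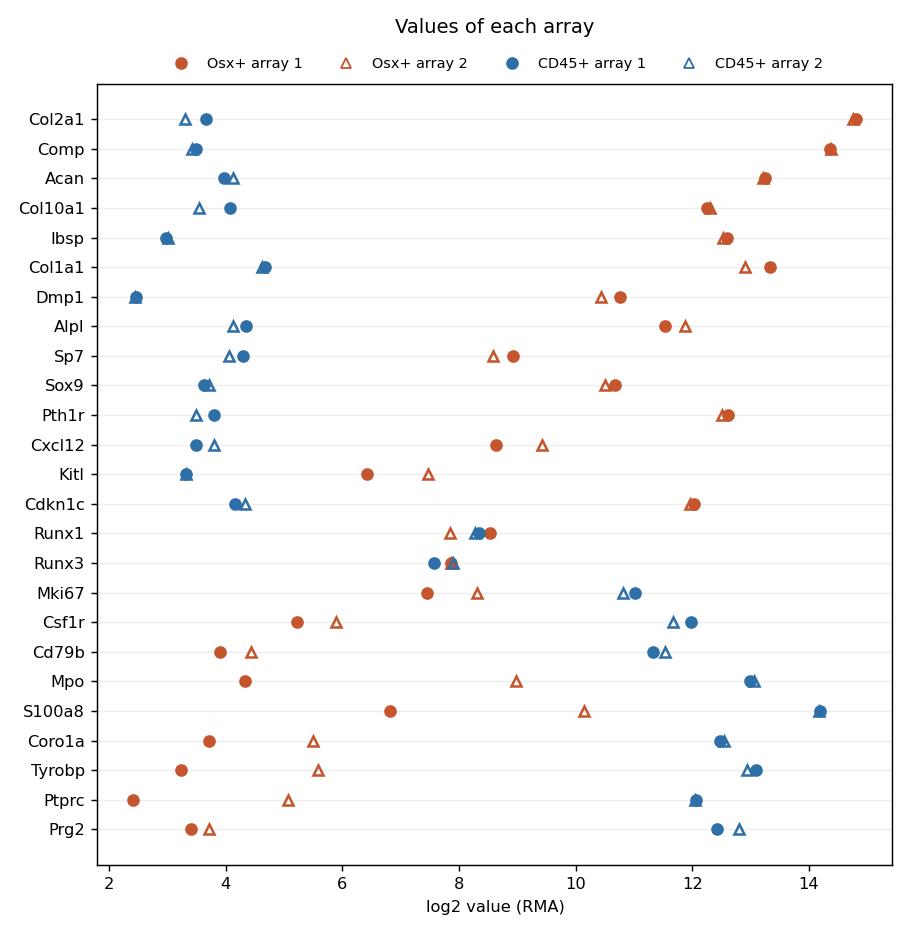
Log2 value (horizontal axis) of 25 genes on each of the 4 arrays, with circles for array 1 and triangles for array 2 of the Osx+ cells (orange) and CD45+ cells (blue). Skeletal genes such as Col2a1 and Ibsp lie to the right in orange, and blood genes such as Ptprc and Prg2 lie to the right in blue. The probe sets drawn for Runx1 and Runx3 overlap, and Mpo and S100a8 split the 2 Osx+ arrays.

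**Figure D2:**
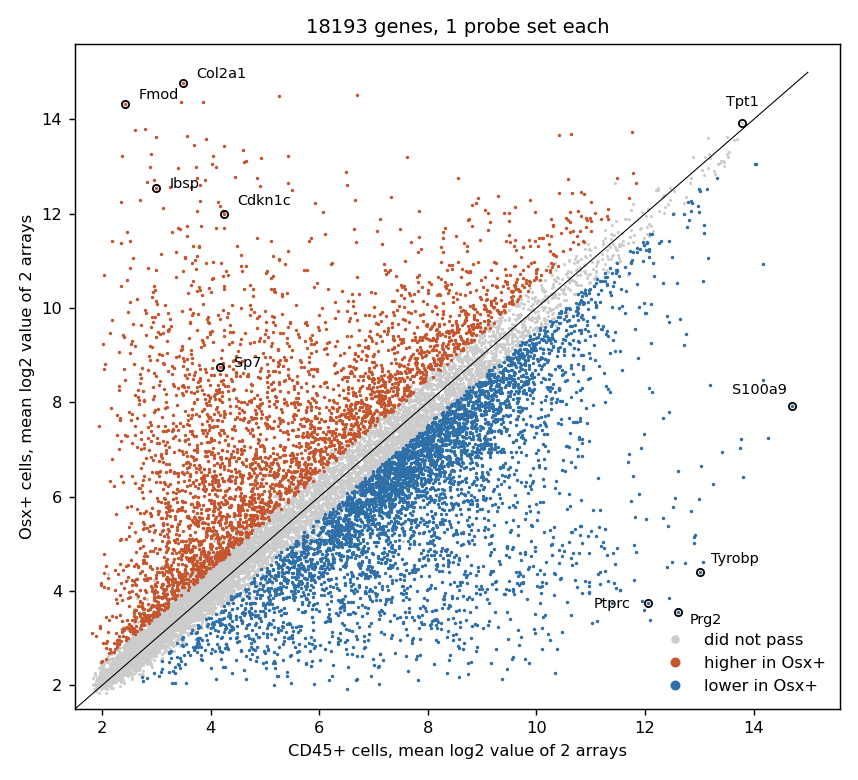
Mean log2 value in Osx+ cells (vertical axis) against the mean in CD45+ cells (horizontal axis) for 18193 genes, with 3605 genes higher (orange), 4627 lower (blue) and the rest grey. The line marks equal values, and Tpt1 lies close to it while Fmod and Prg2 lie far from it on either side.

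Cartilage matrix genes were far higher in Osx+ cells. All 24 measured genes of the chondrocyte matrix list were higher in Osx+ cells, with a median difference of 8.62 and a range from 2.65 to 11.30, beside 19.8% of all genes. Col2a1, the main collagen of cartilage, read 14.81 and 14.75 on the Osx+ arrays, against 3.66 and 3.31 on the CD45+ arrays, a difference of 11.30 ± 0.17 (adjusted p = 1.02e-05). Comp, a pentameric matrix protein of cartilage and tendon, read 14.36 and 14.38 on the Osx+ arrays, against 3.49 and 3.43 on the CD45+ arrays. Both genes were far apart in the 2 populations and nearly equal within each. Hapln1, the link protein whose promoter is shown above, read 13.23 and 13.20 on the Osx+ arrays, against 2.30 and 2.44 on the CD45+ arrays, and all 4 of its probe sets passed as higher. Col11a1 (11.02) and Col9a1 (10.50), collagens of the cartilage fibril, and the chondrocyte proteins Cnmd (10.08), Snorc (9.76) and Matn3 (9.76) followed. Acan, the large aggregating proteoglycan, was higher by 9.18 ± 0.14. Col10a1, the collagen of hypertrophic cartilage, read 12.24 and 12.31 on the Osx+ arrays, against 4.07 and 3.54 on the CD45+ arrays. Ihh, the Hedgehog ligand of prehypertrophic chondrocytes, was higher by 3.78. The chondrocyte matrix list had a median signal of 12.43 and 12.47 on the Osx+ arrays. That of the osteoblast and osteocyte list was 10.83 and 10.86. The title of osteolineage precursors thus stands beside strong signal of cartilage matrix genes, and the mix of cell stages was not resolved. The count of 24 stood in each fit that left out 1 array.

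Genes of bone matrix and mineral were higher as well. Of 24 measured genes of the osteoblast and osteocyte list, 21 were higher and 0 lower, with a median difference of 6.69. Ibsp, the sialoprotein of mineralizing matrix, read 12.59 and 12.52 on the Osx+ arrays, against 2.97 and 3.01 on the CD45+ arrays, a difference of 9.57 ± 0.13 (adjusted p = 1.02e-05). Mmp13, which cuts fibrillar collagen, read 11.10 and 11.64 on the Osx+ arrays, against 2.21 and 2.46 on the CD45+ arrays. Col1a1, the main collagen of bone, read 13.33 and 12.90 on the Osx+ arrays, against 4.66 and 4.61 on the CD45+ arrays. For these 3 genes the arrays of the 2 populations lay more than 8 units apart. Sparc, a collagen-binding protein of bone, was higher by 9.23 and Pth1r, the receptor of parathyroid hormone, by 8.92. Postn, a periosteal matrix protein, read 12.63 and 12.88 on the Osx+ arrays, against 3.84 and 3.67 on the CD45+ arrays. Dmp1 and Phex, genes of phosphate handling that are strong in osteocytes, were higher by 8.14 and 6.76. Tnfsf11, the osteoclast-inducing ligand RANKL, read 7.01 and 6.97 on the Osx+ arrays, against 2.69 and 3.04 on the CD45+ arrays. The 3 members that did not pass were the osteocyte genes Mepe (4.72 and 5.34 in Osx+ cells, against 4.54 and 4.44 in CD45+ cells), Sost (difference 0.25) and Fgf23 (difference 0.01). All 3 were near the median signal or under it in both populations.

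Transcription factors of skeletal cells moved in the same direction with smaller differences. Of 28 measured factors 24 were higher and 0 lower in Osx+ cells, with a median difference of 3.18. Sox9, the factor that starts cartilage, read 10.66 and 10.50 on the Osx+ arrays, against 3.62 and 3.71 on the CD45+ arrays (6.92 ± 0.14). Snai2, a mesenchymal repressor, was higher by 6.91 and the forkhead factor Foxc1 by 6.26. Prrx1 and Twist1, factors of limb mesenchyme, were higher by 5.66 and 5.19, and Sox6 and Sox5, partners of Sox9, by 5.61 and 4.12. Foxc2 was higher by 5.38 and the short stature factor Shox2 by 5.10. Dlx5, a homeobox factor of osteoblasts, read 7.59 and 7.41 on the Osx+ arrays, against 3.33 and 2.71 on the CD45+ arrays. Creb3l1 (4.18), Zfp521 (3.63), Prrx2 (3.36), Ebf3 (2.70) and Msx1 (2.37) also passed. Differences under 2 units were seen for Dlx6 (1.97), Tbx18 (1.89), Hoxc9 (1.49), Atf4 (1.45), Hoxa11 (1.32), Twist2 (0.78) and Msx2 (0.68). Meox1, Dlx3, Alx4 and Hand2 did not pass, with differences of 0.38, 0.29, 0.27 and 0.04. The count of 24 was 16 without CD45+ array 1 and 15 without CD45+ array 2. It was 14 in a fit over all 11 arrays and 24 in a fit over 9, which left out array 2 of the Mx1+Nes+ BM-SSCs and array 2 of the Mx1+Ocn- P-SSCs. These 2 arrays stand apart, with an interquartile range of 1.98 and 1.81, against 3.13 to 3.56 on the 4 arrays compared. Of the factors named, Atf4, Ebf3, Msx1, Dlx6, Tbx18, Twist2, Msx2 and Hoxa11 lost the call without either CD45+ array, Hoxc9 without CD45+ array 2, and Msx2 and Hoxa11 also without Osx+ array 2.

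The machinery that folds, cross-links and exports collagen was higher in Osx+ cells with 1 exception. Of 28 measured genes 27 were higher and 1 lower, with a median difference of 4.65. Pcolce2, an enhancer of procollagen cleavage, read 12.82 and 12.51 on the Osx+ arrays, against 2.61 and 3.04 on the CD45+ arrays. The lysyl hydroxylase Plod2 (8.16), the prolyl hydroxylase P4ha2 (8.07) and the collagen chaperone Serpinh1 (7.82) also stood far apart. Tmem38b, a potassium channel of the endoplasmic reticulum, was the exception at 5.94 and 6.59 on the Osx+ arrays, against 8.48 and 8.63 on the CD45+ arrays (-2.30 ± 0.24). Its call was lost without either CD45+ array, and the count of 27 was 16 in the fit over all 11 arrays and 27 over 9. Genes of the general unfolded protein response and endoplasmic reticulum differed less, with 12 of 25 higher, 1 lower and a median difference of 0.40. Their 12 calls were 0 without CD45+ array 1 and 0 without CD45+ array 2. Sdf2l1 was the gene that was lower in this list (-2.10), and Atf4 led it at 1.45.

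Fibrous matrix and small leucine-rich proteoglycans were higher as well. Of 37 measured genes 35 were higher and 0 lower, with a median of 6.10. Fmod, a collagen-binding proteoglycan of cartilage and tendon, read 14.42 and 14.23 on the Osx+ arrays, against 2.37 and 2.48 on the CD45+ arrays, and all 6 of its probe sets passed as higher. Its computed difference was 11.90 ± 0.14, with CD45+ values under the first quartile. Col3a1 (11.16), the matricellular growth factor Ccn2 (10.65) and Col6a3 (10.38) came next in the list. Col14a1 and Vcan did not pass, with differences of 1.05 and -0.54. Of 24 genes of periosteum, tendon and fibroblasts 17 were higher, led by Postn, Aspn (8.67) and the serine protease Fap (8.02). The 3 lower genes were Pi16 (-3.49), Dpp4 (-1.94) and S100a4 (-1.55), names that are used for fibroblast subsets and are also found in blood cells. Thy1 read 7.42 and 7.28 on the Osx+ arrays, against 7.36 and 7.34 on the CD45+ arrays, and did not differ detectably. The 17 higher genes were 10 without CD45+ array 1, 11 without CD45+ array 2, 4 in the fit over all 11 arrays and 17 over 9. The 35 fibrous matrix genes were 18 over 11 arrays and 35 over 9. The calls of Pi16 and S100a4 were lost without either CD45+ array.

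Signals to blood cells were part of the Osx+ profile. Of 21 measured genes of marrow stroma and niche 16 were higher and 0 lower, with a median of 2.84. Cxcl12, the chemokine that holds blood stem cells in marrow, read 8.63 and 9.42 on the Osx+ arrays, against 3.48 and 3.80 on the CD45+ arrays (5.38 ± 0.29, adjusted p = 9.88e-05). Kitl, stem cell factor, read 6.43 and 7.47 on the Osx+ arrays, against 3.32 and 3.32 on the CD45+ arrays. Osx+ array 2 was the higher one for both ligands, and neither overlapped the CD45+ arrays. For Kitl, 1 of its 4 probe sets passed. The cadherins Cdh11 (7.55) and Cdh2 (6.71) and the receptor ligand Gas6 (5.50) were higher, as was the fat hormone Adipoq (4.09). Lepr, the leptin receptor of marrow stroma, was higher by 0.75 and remained at 4.98 and 5.17 in Osx+ cells, close to the median signal. Vcam1, Angpt1, Csf1, Il7 and Nes did not pass. The 16 calls were 8 without CD45+ array 1 and 8 without CD45+ array 2, where Cxcl12, Kitl, Lepr and Adipoq were among those lost, 6 in the fit over all 11 arrays and 17 over 9.

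Ligands, antagonists and targets of skeletal signalling pathways were largely higher. In the BMP and TGF-beta list 33 of 41 genes were higher and 0 lower (median 2.78). Bmp2, a bone-inducing ligand, read 10.66 and 10.71 on the Osx+ arrays, against 4.26 and 4.19 on the CD45+ arrays. Among ligands Gdf10 was higher by 6.91 and Tgfb2 by 6.47. Among antagonists Chrdl1 was higher by 6.93 and the follistatin-like Fstl1 by 6.84. Id4, a helix-loop-helix target, was higher by 5.91, whereas the receptor Tgfbr2 (-0.32) and the ligand Tgfb1 (-0.54) did not pass. In the Wnt and Hedgehog list 34 of 39 were higher and 0 lower (median 2.71). Far higher were the Wnt antagonists Sfrp2 (7.62), Wif1 (7.22) and Frzb (6.11), followed by Ccn4 (5.67), the ligand Wnt5b (5.32) and the Wnt amplifier Rspo3 (5.29). Sfrp2 read 10.81 and 9.44 on the Osx+ arrays, against 2.47 and 2.54 on the CD45+ arrays. The general Wnt targets Axin2 and Lef1 did not pass, with differences of 0.18 and -0.02. Hedgehog targets Ptch1 (3.39) and Gli1 (2.07) were higher. The counts of 33 and 34 were 24 and 22 without CD45+ array 1, 22 and 22 without CD45+ array 2, 13 and 17 in the fit over all 11 arrays, and 36 and 34 over 9. Sfrp2 and Gli1 lost the call without either CD45+ array.

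Proteases and integrins had members on either side. Of 26 genes of matrix turnover 18 (69.2%) were higher and 6 (23.1%) lower, beside 19.8% and 25.4% of all genes. The lower share was thus near that of all genes. The stromal Mmp13, Timp1 (8.11) and Mmp2 (7.54) were on the higher side, and the 6 lower genes were the granulocyte enzymes Mmp8 (-7.77), Ctsg (-7.03), Prtn3 (-6.06), Mmp9 (-5.79) and Elane (-4.63) with Adam8 (-4.67). Of 23 integrin subunits 11 (47.8%) were higher and 8 (34.8%) lower, and this lower share was also not far from the 25.4% of all genes. Itga10, a collagen receptor of chondrocytes, read 9.44 and 9.59 on the Osx+ arrays, against 4.27 and 3.78 on the CD45+ arrays. Itgb2, the shared beta chain of leukocyte integrins, read 3.59 and 4.71 on the Osx+ arrays, against 11.34 and 11.01 on the CD45+ arrays. Its partners Itgal and Itgam were lower by more than 5 units, at -6.88 and -5.59. The 18 and 6 protease calls were 13 and 2 without either CD45+ array, and the 11 and 8 integrin calls were 3 and 5. Ctsg, Prtn3, Mmp9, Elane and Itgb2 lost the call without either CD45+ array.

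**Figure D3:**
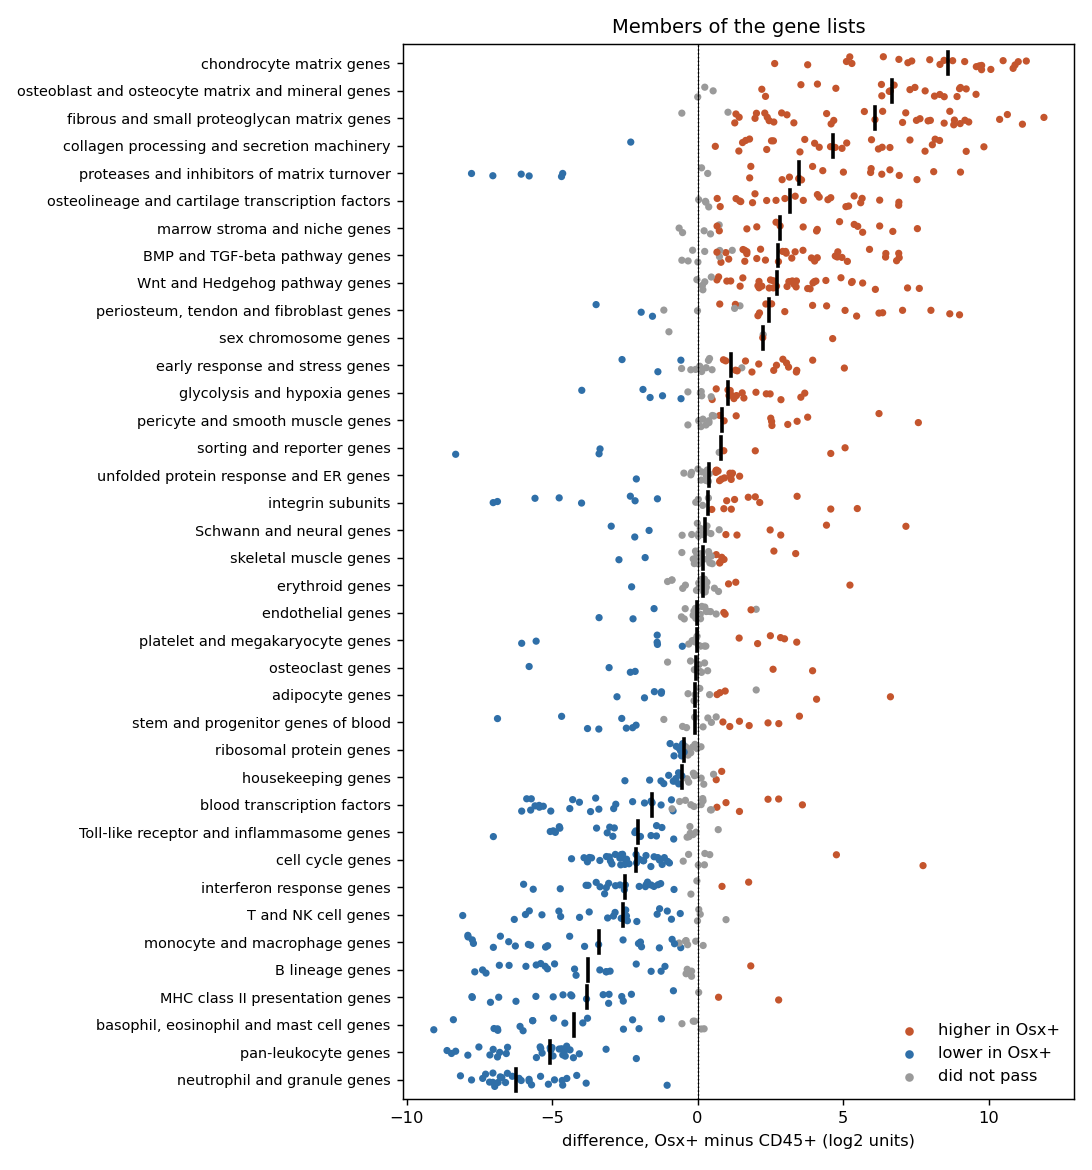
Difference, Osx+ minus CD45+ in log2 units (horizontal axis), of each measured member of 38 gene lists. Each point is 1 gene, coloured by whether it passed as higher (orange), passed as lower (blue) or did not pass (grey). A bar marks each list's median. Chondrocyte matrix genes lie farthest to the right with a median of 8.62 and neutrophil genes farthest to the left with a median of -6.25, and the dotted line marks the median of all genes.

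Genes of the pan-leukocyte list, which includes the sorting marker Ptprc, were lower without exception. All 31 measured pan-leukocyte genes were lower in Osx+ cells, beside 25.4% of all genes, with a median difference of -5.06. Tyrobp, an adaptor of activating receptors, read 3.23 and 5.58 on the Osx+ arrays, against 13.09 and 12.93 on the CD45+ arrays. Coro1a, an actin-binding protein of leukocytes, read 3.71 and 5.50 on the Osx+ arrays, against 12.47 and 12.54 on the CD45+ arrays. Cd53, a tetraspanin, read 3.49 and 4.56 on the Osx+ arrays, against 11.60 and 11.48 on the CD45+ arrays. In all 3 the CD45+ arrays lay close together while Osx+ array 2 was the higher Osx+ array. Cd52 (-8.46) and Cd48 (-7.13) followed, and Lsp1 had the smallest difference in the list (-2.10). The 31 calls were 19 without CD45+ array 1 and 17 without CD45+ array 2. Ptprc, Tyrobp, Coro1a, Cd52 and Itgb2 lost the call without either, and Cd48 without CD45+ array 2, at unchanged direction.

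Myeloid genes were lower in Osx+ cells. All 28 neutrophil and granule genes were lower in Osx+ cells (median -6.25), with Lcn2, an iron-binding protein of granules, at 3.51 and 5.68 on the Osx+ arrays, against 12.74 and 12.74 on the CD45+ arrays. Of 22 basophil, eosinophil and mast cell genes 17 were lower (median -4.25). Prg2, the eosinophil major basic protein, read 3.40 and 3.70 on the Osx+ arrays, against 12.43 and 12.80 on the CD45+ arrays, with a computed difference of -9.06 ± 0.20 (adjusted p = 1.1e-05) and dim values on the Osx+ arrays. Mcpt8, a basophil protease, followed (-8.39). The mast cell proteases Tpsb2, Tpsab1 and Cma1 did not pass and were dim in both populations. Of 29 monocyte and macrophage genes 23 were lower (median -3.40), led by Cybb (-7.89), Mpeg1 (-7.89), Ctss (-7.74) and Ccr2 (-7.70). C1qa, a complement gene of resident macrophages, passed with a small difference (-0.58), at 3.38 and 3.46 on the Osx+ arrays, against 4.14 and 3.86 on the CD45+ arrays. These are dim values in both, and this call was lost without any 1 of the 4 arrays.

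Lymphoid genes followed. Of 26 B lineage genes 21 were lower and 1 higher (median -3.77). Ms4a1, CD20 of B cells, read 4.05 and 3.41 on the Osx+ arrays, against 11.38 and 11.40 on the CD45+ arrays. Bank1 and Cd79b, parts of B cell receptor signalling, were lower as well (-7.39 and -7.27). Sdc1, a plasma cell marker that is also a proteoglycan of other cells, was the higher gene, at 1.83. Cd24a and Xbp1, at -0.21 each, did not pass. Of 26 T and NK cell genes 22 were lower and 0 higher (median -2.55), led by Ms4a4b (-8.07) and the NK receptor Klrd1 (-6.30). Of 21 genes of MHC class II presentation 18 were lower and 2 higher (median -3.81). Cd74, the invariant chain, read 4.92 and 4.99 on the Osx+ arrays, against 11.19 and 11.20 on the CD45+ arrays, and all 4 probe sets of the class II chain H2-Aa (-7.75) passed as lower. The 2 higher members were the transcription factors Batf3 (2.79) and Zbtb46 (0.72), the second of which lost the call without either CD45+ array. Of 26 Toll-like receptor and inflammasome genes 19 were lower and 0 higher (median -2.04), while the shared adaptor Myd88 (-0.05) and kinase Irak1 (-0.25) did not pass. The counts of lower genes of neutrophils (28), monocytes (23), T and NK cells (22) and Toll-like receptors (19) were 11, 11, 13 and 11 without CD45+ array 1, and 11, 12, 13 and 9 without CD45+ array 2. Lcn2, Cybb, Mpeg1, Ctss and Sdc1 were among the lost calls.

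Blood transcription factors were mostly lower. Of 40 measured factors 24 were lower, 6 higher and 10 did not pass, with a median of -1.58. Nfe2, a factor of megakaryocytes and red cells, read 2.89 and 3.59 on the Osx+ arrays, against 9.32 and 9.25 on the CD45+ arrays (-6.04 ± 0.25). Ikzf3 (-5.87), Irf8 (-5.73), Bcl11a (-5.71), Hhex (-5.59), Ikzf1 (-5.44), Lmo2 (-5.43) and Lyl1 (-5.04) were lower by more than 5 units. Myb read 3.16 and 6.78 on the Osx+ arrays, against 10.16 and 10.37 on the CD45+ arrays, with Osx+ array 2 well above Osx+ array 1. Between -5 and -3 lay Tfec (-4.39), Irf4 (-4.29), Gfi1 (-4.06), Irf5 (-3.68), Fli1 (-3.50) and Spi1 (-3.39). Smaller negative differences belonged to Cbfa2t3 (-2.88), Ikzf2 (-2.81), Gata2 (-2.23), Cebpa (-1.82), Ebf1 (-1.60), Tal1 (-1.56), Pax5 (-1.25), Gata3 (-0.90) and Tcf3 (-0.84).

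The 6 factors that were higher included genes with known roles outside blood. Hoxa10 and Hoxa9, homeobox genes of limb and blood progenitors, were higher by 3.60 and 1.44. Hoxa10 read 6.09 and 6.61 on the Osx+ arrays, against 3.04 and 2.46 on the CD45+ arrays. Batf3, a dendritic cell factor, read 8.38 and 8.05 on the Osx+ arrays, against 5.39 and 5.46 on the CD45+ arrays. Mecom, a zinc finger factor of blood stem cells, was higher by 2.42, Foxo1 by 0.98 and Id2 by 0.67. These 6 were 15% of the 40 measured factors, under the 19.8% of all genes that were higher. Meis1 (0.48), Erg (0.44), Hlf (0.19), Zbtb16 (0.18), Cebpb (-0.23), Klf1 (-0.42), Gfi1b (-0.62) and Gata1 (-0.88) did not pass. Gata1 passed as lower in 9 of 14 alternatives and Gfi1b in 6 of 14, without Osx+ array 2 and in the fit over 9 arrays among them. The 6 and 24 calls were 3 and 11 without CD45+ array 1, and 1 and 12 without CD45+ array 2. Ikzf1, Lmo2, Myb, Tfec, Gfi1, Spi1, Cebpa, Ebf1, Tal1, Pax5, Gata3, Tcf3, Hoxa9, Foxo1 and Id2 lost the call without either CD45+ array, Cbfa2t3 without array 1, and Hoxa10 and Mecom without array 2. Tal1 also lost it without Osx+ array 1.

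The probe sets taken for Runx1 and Runx3 did not separate the populations, but other probe sets of Runx1 did. Runx2, which is on the list of skeletal factors, had no probe set annotated with that 1 symbol alone, so its level was not analysed. Runx1 read 8.53 and 7.85 on the Osx+ arrays, against 8.34 and 8.28 on the CD45+ arrays, and the arrays overlapped. Runx3 read 7.86 and 7.86 on the Osx+ arrays, against 7.57 and 7.90 on the CD45+ arrays, and overlapped as well. The differences were -0.12 ± 0.24 for Runx1 and 0.12 ± 0.16 for Runx3. The 6 probe sets of Runx1 disagreed: 3 passed as higher, with differences of 0.64, 0.70 and 1.38, 1 passed as lower (-0.65) and 2 did not pass. No single level of Runx1 can therefore be given for the 2 populations.

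The motif counts bear on the promoters shown above. In the 250 bases before the start site, 11 motifs were searched on both strands. The blood-related ones were PU.1 (GAGGAAGT), the wider ETS family (AGGAAGTG), C/EBP (TTGCNNAA) with its palindrome (TTGCGCAA), and the IRF motif. The others were RUNX (TGTGGTT), SOX (ACAATGG), the TATA box (TATAAA), the GC box (GGGGCGGGG), the CRE (TGACGTCA) and a CRE variant (TGACGTAA). The PU.1 and ETS letters overlap in 7 bases, and the C/EBP palindrome is a case of the C/EBP motif. A promoter entry was matched for 210 genes that were higher by more than 5 units, 168 genes that were lower by more than 5 units and 14452 of all measured genes.

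The PU.1 letters stood in 2.38% of promoters of the genes higher in Osx+ cells and in 8.33% of the genes lower in Osx+ cells, beside 2.8% of all genes. The related ETS letters stood in 2.38% and 9.52%, beside 3.78%. The C/EBP letters stood in 10% and 20.2%, beside 9.65%. The IRF motif stood in 3.33% and 7.74%, beside 3.13%. For these 4 motifs the share was above that of all genes among genes lower in Osx+ cells and closer to it among genes higher in Osx+ cells. The GC box stood in 23.3% of higher and 5.36% of lower genes, beside 18.5%, and the CRE in 3.33% and 0.595%, beside 2.5%. The C/EBP palindrome and the CRE variant stood in 0% of either, beside 0.235% and 0.664% of all genes. The RUNX letters stood in 6.19% of higher and 10.7% of lower genes, beside 4.35%, and the TATA box in 16.7% and 19%, beside 10.5%, so that both exceeded the share of all genes on either side. The SOX letters stood in 1.43% and 2.38%, beside 2.79%. These shares are descriptions of letters, and no test was run on them.

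**Figure D4:**
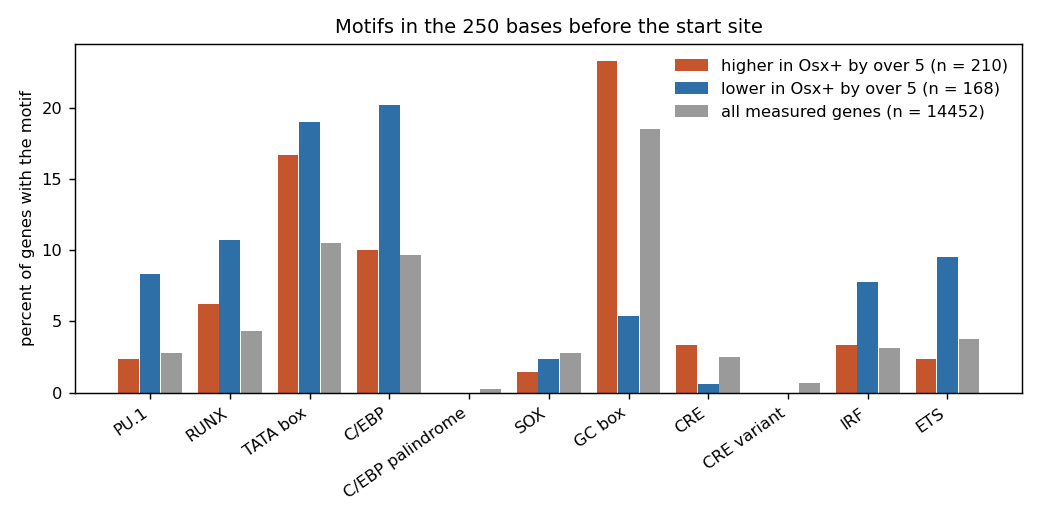
Percent of genes with each of 11 motifs in the 250 bases before the start site, for genes higher in Osx+ cells by more than 5 log2 units (orange, 210 genes), lower by more than 5 (blue, 168 genes) and all measured genes (grey, 14452). PU.1, ETS and C/EBP bars are tallest in blue, at 8.33%, 9.52% and 20.2%, and the GC box bar is tallest in orange, at 23.3%.

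Genes of the cell cycle were lower in Osx+ cells, and 2 inhibitors were higher. Of 41 measured genes 33 (80.5%) were lower and 2 (4.88%) higher, with a median of -2.10, beside 25.4% and 19.8% of all genes. Mki67, a marker of cycling cells, read 7.44 and 8.31 on the Osx+ arrays, against 11.01 and 10.81 on the CD45+ arrays. E2f2 (-4.33), the replication helicase subunit Mcm5 (-3.90), Bub1 (-3.78) and Aurkb (-3.72) had the largest negative differences. The exceptions were the cyclin-dependent kinase inhibitors Cdkn1c (p57) and Cdkn1a (p21). Cdkn1c read 12.03 and 11.95 on the Osx+ arrays, against 4.17 and 4.32 on the CD45+ arrays (7.75 ± 0.14, adjusted p = 1.02e-05). Cdkn1a read 11.92 and 11.84 on the Osx+ arrays, against 7.18 and 7.03 on the CD45+ arrays. The D-type cyclins Ccnd1 (0.03) and Ccnd2 (0.42) did not pass. The 33 lower calls were 5 without CD45+ array 1 and 5 without CD45+ array 2, where Mki67, E2f2, Mcm5, Bub1 and Aurkb were lost, while the 2 higher calls stood in both. Between the Osx+ arrays the list's median gap was 0.53, array 2 above array 1.

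Interferon-induced genes were lower, with 23 of 27 (85.2%) passing in that direction, 2 (7.41%) higher and a median of -2.48. Among all genes 25.4% were lower and 19.8% higher. Ifi27l2a read 4.22 and 4.52 on the Osx+ arrays, against 10.21 and 10.48 on the CD45+ arrays. The 2 higher genes were Isg20 (1.76) and Cxcl10 (0.84). Genes of glycolysis and hypoxia were mostly higher, with 16 of 26 (61.5%) passing as higher and 5 (19.2%) as lower (median 1.06). The lower share was under that of all genes. The glucose transporters went apart: Slc2a1 read 11.28 and 11.14 on the Osx+ arrays, against 8.71 and 8.72 on the CD45+ arrays, and Slc2a3 read 6.82 and 6.91 on the Osx+ arrays, against 10.83 and 10.85 on the CD45+ arrays. The angiogenic factor Vegfa was higher by 3.55 and the collagen prolyl hydroxylase P4ha1 by 3.68. The 23 interferon and 16 glycolysis calls were 14 and 5 without CD45+ array 1, and 13 and 5 without CD45+ array 2, and Cxcl10 was lost in both and Isg20 without array 1.

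Genes of early response and stress, which answer within minutes to handling of tissue, were higher for 16 and lower for 3 of 30 genes (median 1.14). These were 53.3% and 10%, beside 19.8% and 25.4% of all genes. Nr4a2, an immediate early nuclear receptor, read 11.24 and 10.38 on the Osx+ arrays, against 5.95 and 5.58 on the CD45+ arrays, and Egr2 was higher by 3.96 and Fosb by 3.41. Fos did not pass, at 13.09 and 13.33 in Osx+ cells, against 13.10 and 13.10 in CD45+ cells. The methods describe digestion with collagenase for periosteum and for minced bone. They do not say whether the CD45+ cells were digested, and the part of digestion in these differences was not tested. The 16 calls were 9 without CD45+ array 1 or without CD45+ array 2, where Nr4a2 was lost, 0 in the fit over all 11 arrays and 18 over 9.

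Markers of other cells that the sorts could hold are given beside 19.8% higher and 25.4% lower among all genes. Of 27 endothelial genes 21 did not pass, 3 were higher and 3 lower, with a median of -0.02. Cdh5, the endothelial cadherin, read 4.14 and 3.34 on the Osx+ arrays, against 5.72 and 6.20 on the CD45+ arrays. Of 24 erythroid genes 20 did not pass, and Alas2, which makes heme, read 3.97 and 4.65 on the Osx+ arrays, against 4.17 and 4.07 on the CD45+ arrays. Of 30 skeletal muscle genes 21 did not pass, and the 7 higher ones were led by the troponin Tnni2 (3.37), which is also found in cartilage, while Myod1 (0.38) did not pass. Of 20 genes of pericytes and smooth muscle 11 were higher and 0 lower, led by Cspg4 (7.59) and Pdgfrb (6.24), which skeletal stromal cells share. Of 20 Schwann and neural genes 6 were higher and 3 lower, led by Pmp22 (7.16) and S100b (4.43), the second of which is also a chondrocyte gene. Of 15 osteoclast genes 2 were higher, Ctsk (3.95) and Nfatc1 (2.59), and 4 lower, with Acp5 at 5.03 and 5.61 on the Osx+ arrays, against 8.33 and 8.39 on the CD45+ arrays. Of 17 adipocyte genes 5 were higher, led by Car3 (6.63), and 5 lower. Of 21 platelet genes 6 were higher and 6 lower, and of 23 genes of blood stem cells 7 and 8. For adipocytes these were 29.4% in each direction, for platelets 28.6% in each, and for blood stem cells 30.4% higher and 34.8% lower. Such shares lie near those of all genes, as does the 23.3% of muscle genes that were higher. Without CD45+ array 1 or 2 the counts of these lists were between 0 and 5 in either direction, and Cdh5 and Acp5 lost the call without either. The erythroid counts of 3 higher and 1 lower were 6 and 1 without Osx+ array 1, and 3 and 7 without Osx+ array 2.

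Granulocyte and progenitor genes split the 2 Osx+ arrays. Mpo, the peroxidase of granulocyte precursors, read 4.34 and 8.98 on the Osx+ arrays, against 12.99 and 13.06 on the CD45+ arrays. S100a8, a calcium-binding protein of neutrophils, read 6.81 and 10.14 on the Osx+ arrays, against 14.19 and 14.17 on the CD45+ arrays. Prtn3, whose promoter is shown above, read 4.67 and 8.41 on the Osx+ arrays, against 12.35 and 12.85 on the CD45+ arrays. In all 3, Osx+ array 2 stood more than 3 units above Osx+ array 1 and still more than 3 units below the CD45+ arrays, and each call was lost without either CD45+ array. Olfm4, the other gene with a PU.1 motif printed, showed no such split, at 2.49 and 2.70 on the Osx+ arrays, against 9.39 and 9.73 on the CD45+ arrays.

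By list, the median of Osx+ array 2 minus Osx+ array 1 was 1.20 for neutrophil genes, with 15 of 28 more than 1 unit apart, and 0.71 for pan-leukocyte genes, with 10 of 31. It was 0.53 for cell cycle genes, 0.45 for erythroid genes, with 6 of 24 more than 1 unit higher on array 2, and 0.22 for monocyte and macrophage genes, with 4 of 29. It was -0.03 for B lineage genes, 0.03 for T and NK cell genes, 0.12 for MHC class II genes and -0.02 for chondrocyte matrix genes. Other skeletal lists were less even. The median was 0.28 for osteoblast and osteocyte genes, with 2 of 24 more than 1 unit higher on array 2 and 0 lower. For periosteum, tendon and fibroblast genes it was 0.13, with 4 of 24 higher and 0 lower. In that list Kera read 3.06 and 5.39 and Clec3b 5.54 and 7.47 on the Osx+ arrays. Among all genes the median was 0.07. Of 222 genes lower in Osx+ cells by more than 5 units, 59 stood over 1 unit higher on Osx+ array 2 and 0 lower. Of 290 genes higher by more than 5 units, 0 stood over 1 unit higher on it and 2 lower. What set the Osx+ arrays apart was not tested. All 28 neutrophil genes and all 31 pan-leukocyte genes were lower without Osx+ array 1 and without Osx+ array 2.

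**Figure D5:**
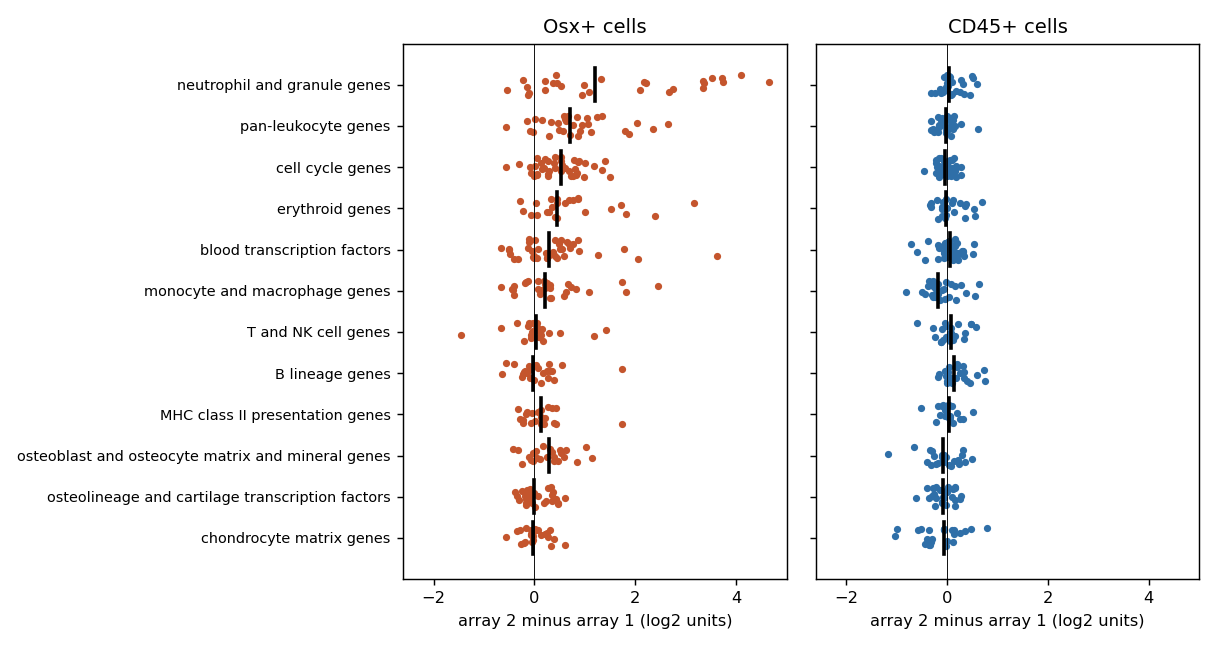
Array 2 minus array 1 in log2 units (horizontal axis) for each member of 12 gene lists, in Osx+ cells (left) and CD45+ cells (right), with 1 point a gene and a bar at the median. In Osx+ cells neutrophil genes reach beyond 4 units with a median of 1.20 while chondrocyte matrix genes centre on -0.02, and in CD45+ cells all 12 medians lie close to 0.

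Some abundant transcripts did not differ detectably. Tpt1, a growth-related protein of all cells, read 13.90 and 13.95 on the Osx+ arrays, against 13.81 and 13.78 on the CD45+ arrays. The translation factor Eef1a1 (-0.08) and the ribosomal proteins Rps28 (0.11), Rps29 (-0.11) and Rps3a1 (-0.24) did not pass either. Of 23 listed ribosomal protein genes 0 were higher and 11 lower, by less than 1 unit each (median -0.46). Of 21 housekeeping genes 2 were higher and 11 lower (median -0.54), among them Actb (-0.99) and the class I light chain B2m (-2.50). These 11 and 11 calls were 0 and 1 without either CD45+ array, Actb among those lost, and the ribosomal count was 4 without Osx+ array 1 and 7 without Osx+ array 2.

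Across all probe sets the 2 Osx+ arrays correlated at 0.985 and the 2 CD45+ arrays at 0.995, and arrays of different populations at 0.793 to 0.814. Between replicate arrays 947 probe sets (2.10%) differed by more than 1 unit in Osx+ cells and 77 (0.171%) in CD45+ cells. The gap between the 3′ and 5′ control probe sets of actin was 1.92 and 1.96 on the Osx+ arrays, against 0.658 and 0.628 on the CD45+ arrays, and that of Gapdh was 0.938 and 1.55, against 0.147 and 0.0561. A larger gap goes with shorter RNA or shorter labelled copies, it moved with the population, and its part in the differences was not tested. Over probe sets, 7205 of 45037 (16.0%) were higher and 9656 (21.4%) lower. These were 1644 and 2531 in the fit over all 11 arrays, 8120 and 10536 over 9 arrays, 1790 and 1839 without CD45+ array 1, and 1694 and 1633 without CD45+ array 2. The fits without a CD45+ array take their spread from the Osx+ pair alone.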

How the data were processed

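RNA from 11 sorted mouse samples was hybridised to Affymetrix mouse arrays, of which 4 were compared here. Per the methods, the authors ran RMA in Partek GS and R, which subtracts background, equalises distributions by quantiles and summarises the probes of a set by median polish, and the deposited table holds the resulting log2 values. Software versions were not given in the sources used here. A shift shared by most genes of an array is therefore not visible.

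Of 45101 probe sets, 64 Affymetrix controls were left out and 45037 were tested. The Osx+ and CD45+ means were compared with limma 3.58.1 in R 4.3.3 on the 4 arrays alone (2 residual degrees of freedom), with Benjamini-Hochberg adjustment over all 45037 and a threshold of 0.05. The number of arrays limits the precision. Of the tested probe sets 34945 had 1 gene symbol in the platform annotation, 932 several and 9160 none. Each of 18193 genes was read from its brightest probe set on average across these arrays, and 99 genes had probe sets called in both directions. Adjusted p-values of genes are those of the fit over all probe sets.

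The 38 gene lists and their members were chosen with earlier results of these data known. The list of imprinted genes was added to them after values were seen. Over all of these lists 910 of 998 distinct genes were measured. Genes were named by rule. These were the sorting genes, both lists of transcription factors, the 15 largest differences each way without overlap, up to 6 leading and 4 opposite members of each list, 2 bright members that did not pass, and 5 bright flat genes. The rule gave 349 genes, and 386 in all were followed through the alternatives. Those outside the rule were named after their values were seen, among them Acan, Kitl, Lepr, Mpo, S100a8, Mki67 and Peg3. Genes of the lists with no annotated row were not analysed here.

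Promoter sequences were taken from RefSeq (GRCm38.p6). The fit was tested on simulated data. Alternatives were unadjusted p, all 11 or 9 arrays in the fit, a filter on dim probe sets, quantile normalization, median centring, a variance trend, a minimum of 1 log2 unit, testing single probe sets of genes only, blocking on the array number, and leaving out each array.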

Additional observations from a re-analysis of the deposited data

How the results depend on the processing

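Of 7205 probe sets higher and 9656 lower in Osx+ cells, 1644 and 2531 remained past the threshold in the fit over all 11 arrays. In the fit over 9 arrays, without array 2 of the Mx1+Nes+ BM-SSCs and of the Mx1+Ocn- P-SSCs, the counts were 8120 and 10536. With a minimum of 1 log2 unit the counts were 4599 and 6162, and with 1 probe set per gene 3895 and 4884 of 18193, since fewer were tested. Leaving out 1 array gave 1694 to 6819 higher and 1633 to 8857 lower. The low ends came without a CD45+ array, where 1 residual degree of freedom from the Osx+ pair remained. The remaining alternatives gave counts within 1.5 times of these. With the array number as a block 7323 were higher and 9743 lower. The numbers share no stated origin, and deviations of same-numbered arrays correlated at 0.0115, so this is no pairing. Of 302 named genes that passed, 132 lost the call without CD45+ array 1 or 2, 14 without Osx+ array 1 or 2, 109 with all 11 arrays, 0 with 9 arrays and 25 by the minimum of 1 unit, and none changed direction with a call. Of the other named genes 8 gained a call with 9 arrays. Where both populations lay near the median signal, a difference was not detectable, which does not show that there was none.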

Other observations

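Imprinted genes, which are read from 1 parental copy and include growth regulators of fetal tissue, were mostly higher in Osx+ cells. Of 33 measured 22 were higher and 3 lower, with a median difference of 1.33 beside 0.02 for all genes. This list was chosen after values were seen, and is a description. The zinc finger gene Peg3 read 11.71 and 11.53 on the Osx+ arrays, against 2.29 and 2.62 on the CD45+ arrays. Plagl1, a zinc finger regulator, read 13.08 and 12.92 on the Osx+ arrays, against 3.99 and 4.22 on the CD45+ arrays. The growth factor Igf2 was higher by 5.63 and the receptor adaptor Grb10 by 7.03. Meg3, a noncoding RNA, read 10.55 and 8.73 on the Osx+ arrays, against 4.33 and 4.38 on the CD45+ arrays, with 8 of its 11 probe sets higher. Copg2, a coat protein gene, was among the 3 lower genes (-1.79). The 22 and 3 calls were 12 and 0 without CD45+ array 1, and likewise without CD45+ array 2.

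Genes of the sex chromosomes differed between the arrays of Osx+ cells. Eif2s3y, on the Y chromosome, read 6.43 and 8.53 on the Osx+ arrays, against 2.90 and 2.77 on the CD45+ arrays. Xist, which is active in female cells, read 11.52 and 9.90 on the Osx+ arrays, against 11.66 and 11.72 on the CD45+ arrays. Both Osx+ arrays thus held Y-linked and Xist signal, and the CD45+ arrays held Xist signal with dim Eif2s3y. Uty and Kdm5d, also on the Y chromosome, were higher by 2.24 (passed) and 2.26 (did not pass). The calls of Eif2s3y and Uty were lost without either CD45+ array, and the part of the mix of sexes in other differences was not tested.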
